A study of Physcomitrium patens with 4 samples.

Results

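The genes described are the ion, nutrient, sugar and water transporters of the moss *Physcomitrella patens*, followed in isolated protoplasts and in the cells that regenerated from them. A gene was taken as a member when the description of its best Arabidopsis match named an aquaporin or an intrinsic protein, or named a transporter together with potassium, nitrate, ammonium, phosphate, sulfate, zinc, copper, magnesium, sugar, sucrose, amino acid, peptide or cation. This gave 169 of the 18800 genes in the tables, of which 13884 carry an Arabidopsis description. The 169 genes were matched to 85 different Arabidopsis genes, so many are paralogs that share a name, and each is therefore given with its moss identifier. They were sorted by the words of the description into 12 families: 30 amino acid, 26 zinc, copper and magnesium, 23 nucleotide-sugar, 20 phosphate, 14 aquaporin, 13 ammonium, 10 peptide, 8 sucrose and sugar, 7 nitrate, 7 other cation, 6 sulfate and 5 potassium genes.

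The study compared 4 samples, each sequenced as 1 library: freshly isolated protoplasts (0 h, called t-0 protoplasts) and the cells after culture for 24 h (t-24), for 48 h (t-48) and for 72 h (t-72). All came from protonemata of a wild-type strain, digested with Driselase in mannitol, and no mutant or added hormone was involved. Cultures stood in liquid medium that held ammonium tartrate and mannitol, in the dark for the first 24 h and then under daily light. Culture time and light therefore cannot be told apart between 24 and 48 h. Between 0 and 24 h, culture time, the dark and the time since digestion changed together and cannot be told apart either. Material of a time point was pooled before RNA isolation, which leaves no replicates.

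Transporters set what a plant cell takes in. Proton pumps of the plasma membrane and the vacuole build the gradient that most carriers of ammonium, phosphate, sulfate, sucrose, amino acids and peptides run on. Aquaporins are channels for water and, in some subfamilies, for small uncharged solutes such as boric acid. In Arabidopsis many uptake carriers, among them those of the AMT1, PHT1 and SULTR1 groups, respond in transcript amount to the nutrient that they carry.

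Each tag is a short sequence next to the CATG site nearest the 3′ end of a transcript, so a gene's tags count its transcripts without a factor for length. The libraries held 2247746, 1750184, 1964182 and 2445814 gene tags at 0, 24, 48 and 72 h. A level is given as CPM, the tags of a gene per 1000000 tags of the library after TMM scaling (a trimmed mean of the log ratios between libraries), and 3 tags stood for a level between 1.13 and 1.77. Tags seen once had been removed before deposit, and no gene had exactly 1 tag in any library, so a gene listed with 0 tags could have had tags seen once. The transporters took 0.657, 0.804, 0.446 and 0.479% of all tags at 0, 24, 48 and 72 h. Tags were found for 150, 140, 131 and 129 of the 169 genes (88.8, 82.8, 77.5 and 76.3%), against 88.9, 86.6, 74.0 and 76.3% of all genes.

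A gene was called between 2 libraries when its scaled tags differed at least 4-fold, the higher library held at least 100 tags, and both the p and the Benjamini-Hochberg adjusted p of edgeR's exact test, with a dispersion of about 0, were at most 0.01. This compares libraries and not cultures, and it makes no allowance for the spread between cultures. Ratios are given with exact 95% intervals that cover counting error only. Of the 169 transporters, 56 reached 100 tags in some library and could be called at all, 25 had fewer than 10 tags over all 4 libraries, and 27 entered no comparison. Calls were made for 40 genes in at least 1 of 4 comparisons, and 16 genes with 100 or more tags were not called. How many of all genes were called in at least 1 comparison was not counted.

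In t-24 cells, against t-0 protoplasts, 4 of 138 tested transporters were called higher (2.90%, where 2.43% of all tested genes were) and 10 lower (7.25%, where 4.88% of all tested genes were). Between 24 and 48 h the counts were 9 higher in t-48 cells and 10 lower of 127 tested (7.09 and 7.87%), beside 7.48 and 6.83% of all genes. Between 48 and 72 h, 8 were higher in t-72 cells and 7 lower of 115 tested (6.96 and 6.09%), beside 7.65 and 7.06% of all genes. In t-72 cells against t-0 protoplasts, 6 were higher and 11 lower of 130 tested (4.62 and 8.46%), beside 6.08 and 7.93% of all genes. The shares of transporters lay near those of all genes, with the widest gap of the 3 steps among the genes lower in t-24 cells. Their median log2 change was -0.07, -0.52 and -0.25 in the 3 successive steps, beside -0.08, -0.30 and 0.01 for all tested genes. From 0 to 72 h it was -0.97, beside -0.34 for all tested genes, and 66.2% of the transporters were below 0, beside 56.7% of all genes. Neighbouring steps share a library, so their counts are not independent of each other.

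The splits of the second step and of 72 h against 0 h moved with the scaling. With total tags in place of TMM, the transporters were 5 higher and 12 lower at 48 h against 24 h (all genes 745 higher and 1317 lower), and 2 higher and 23 lower at 72 h against 0 h (all genes 486 higher and 1806 lower). That scaling shifted the median of all genes by 0.17, -0.54, -0.39 and -0.75 on the log2 scale at 24 h against 0 h, 48 h against 24 h, 72 h against 48 h and 72 h against 0 h.

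**Figure D1:**
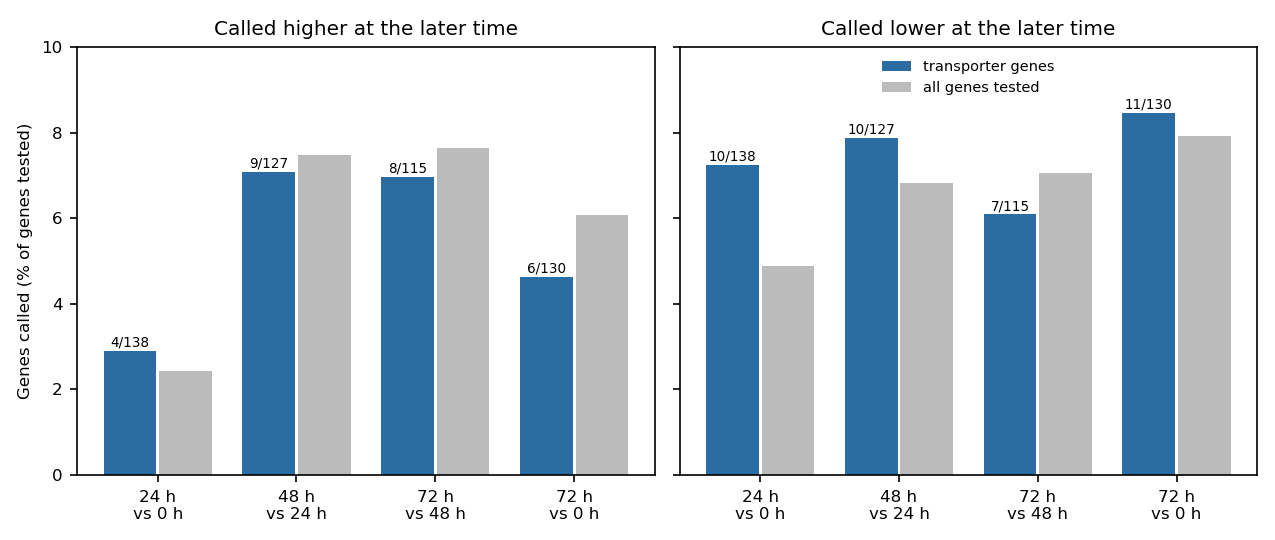
Share of tested genes that were called higher (left) or lower (right) in the later library, in percent, for the transporters (blue, with the number called over the number tested) and for all genes tested (grey). The 2 bars of each pair lie close together, and the widest gap among the lower calls of the 3 steps is at 24 h against 0 h, with 7.25% of transporters and 4.88% of all genes.

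Of the 36 called in at least 1 step, 27 were called in 1 step only, 6 in 2 steps and 3 in all 3 steps. The same split was not counted over all genes. Among the 56 transporters with 100 or more tags, 19 were highest in t-0 protoplasts, 19 in t-24 cells, 9 in t-48 cells and 9 in t-72 cells. These were 33.9, 33.9, 16.1 and 16.1% at 0, 24, 48 and 72 h. Of the 6700 genes with as many tags, 28.3, 17.7, 28.1 and 25.9% were highest at these times. With total tags as the scale the transporters' shares became 33.9, 37.5, 16.1 and 12.5%, beside 31.6, 26.2, 25.6 and 16.6% of all such genes.

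Among the water channels, 1 gene had the highest ratio of the 4 transporters called higher in the first step. The NOD26-like channel NIP5;1 (Pp1s37_249V6), which in Arabidopsis carries boric acid, had 49 tags in t-0 protoplasts, 3142 in t-24 cells, 404 in t-48 cells and 1565 in t-72 cells. It was low in fresh protoplasts only, and its highest library was the dark culture of 24 h. NIP5;1 was 72.9-fold higher in t-24 cells than in t-0 protoplasts (interval 55.0 to 98.8), 5.97-fold lower in t-48 than in t-24 cells (5.38 to 6.64), and 4.10-fold higher in t-72 than in t-48 cells (3.67 to 4.58). It was the only transporter called higher, lower and higher again, a pattern that rests on the TMM scale, since with total tags the last step was 3.11-fold and not called, and at a dispersion of 0.16 the first of the 3 steps alone was called. It stood 50-fold higher in t-72 cells than in t-0 protoplasts (37.6 to 67.9). A paralog of the same name, Pp1s258_69V6, had 15 tags in t-24 cells and 0 in the other libraries.

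Tonoplast channels pass water between cytosol and vacuole. TIP1;3 (Pp1s156_153V6) had 812, 982, 675 and 3418 tags at 0, 24, 48 and 72 h, and so was nearly level until 48 h and highest in t-72 cells. It was 5.35-fold higher in t-72 than in t-48 cells (4.93 to 5.82). Its 3 paralogs did not share this course: Pp1s283_16V6 had 252, 358, 94 and 216 tags and was not called, Pp1s184_96V6 had at most 17 tags, and Pp1s44_31V6 had 91 tags in t-24 cells and 98 in t-72 cells with 0 at 0 and 48 h.

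NIP5;1 and TIP1;3 Pp1s156_153V6 together held 61.1, 88.7, 74.7 and 89.8% of the tags of the 14 aquaporin genes at 0, 24, 48 and 72 h. In t-72 cells they held 42.6% of the tags of all 169 transporters, against 5.83% in t-0 protoplasts. The summed level of the 14 aquaporins, 531, 1991, 805 and 3270 CPM, therefore followed these 2 genes, while the other 12 summed to 207, 226, 203 and 335. Without the pair, the other 167 transporters summed to 5233, 4260, 4284 and 3963 CPM.

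At the plasma membrane the course differed. PIP2;4 (Pp1s32_353V6), a water channel of the plasma membrane, had 124, 27, 151 and 88 tags, and was lowest in t-24 cells, where NIP5;1 was highest. It was 7.28-fold higher in t-48 than in t-24 cells (4.81 to 11.4). The t-24 library was 4.04-fold below the t-0 library (2.65 to 6.37), which just missed the call because the log2 value used for the limit carries a prior count of 0.5. PIP2A (Pp1s267_61V6) had 68, 5, 0 and 0 tags. SIP1A (Pp1s3_429V6), of a small subfamily placed in the endoplasmic reticulum in Arabidopsis, had 29, 14, 71 and 111 tags and was 5.99-fold higher in t-72 cells than in t-0 protoplasts (3.95 to 9.35), which with total tags was 3.48-fold and not called.

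The aquaporin protein domain (Pfam) was assigned to 12 of the 14 members and to 1 gene outside the rule, DELTA-TIP (Pp1s101_226V6), whose description reads integral in place of intrinsic. This tonoplast channel had 82, 28, 19 and 427 tags, and was 23.8-fold higher in t-72 than in t-48 cells (15.0 to 39.9) and 8.15-fold higher in t-72 cells than in t-0 protoplasts (6.42 to 10.5). It was singled out for the domain after its values were seen.

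**Figure D2:**
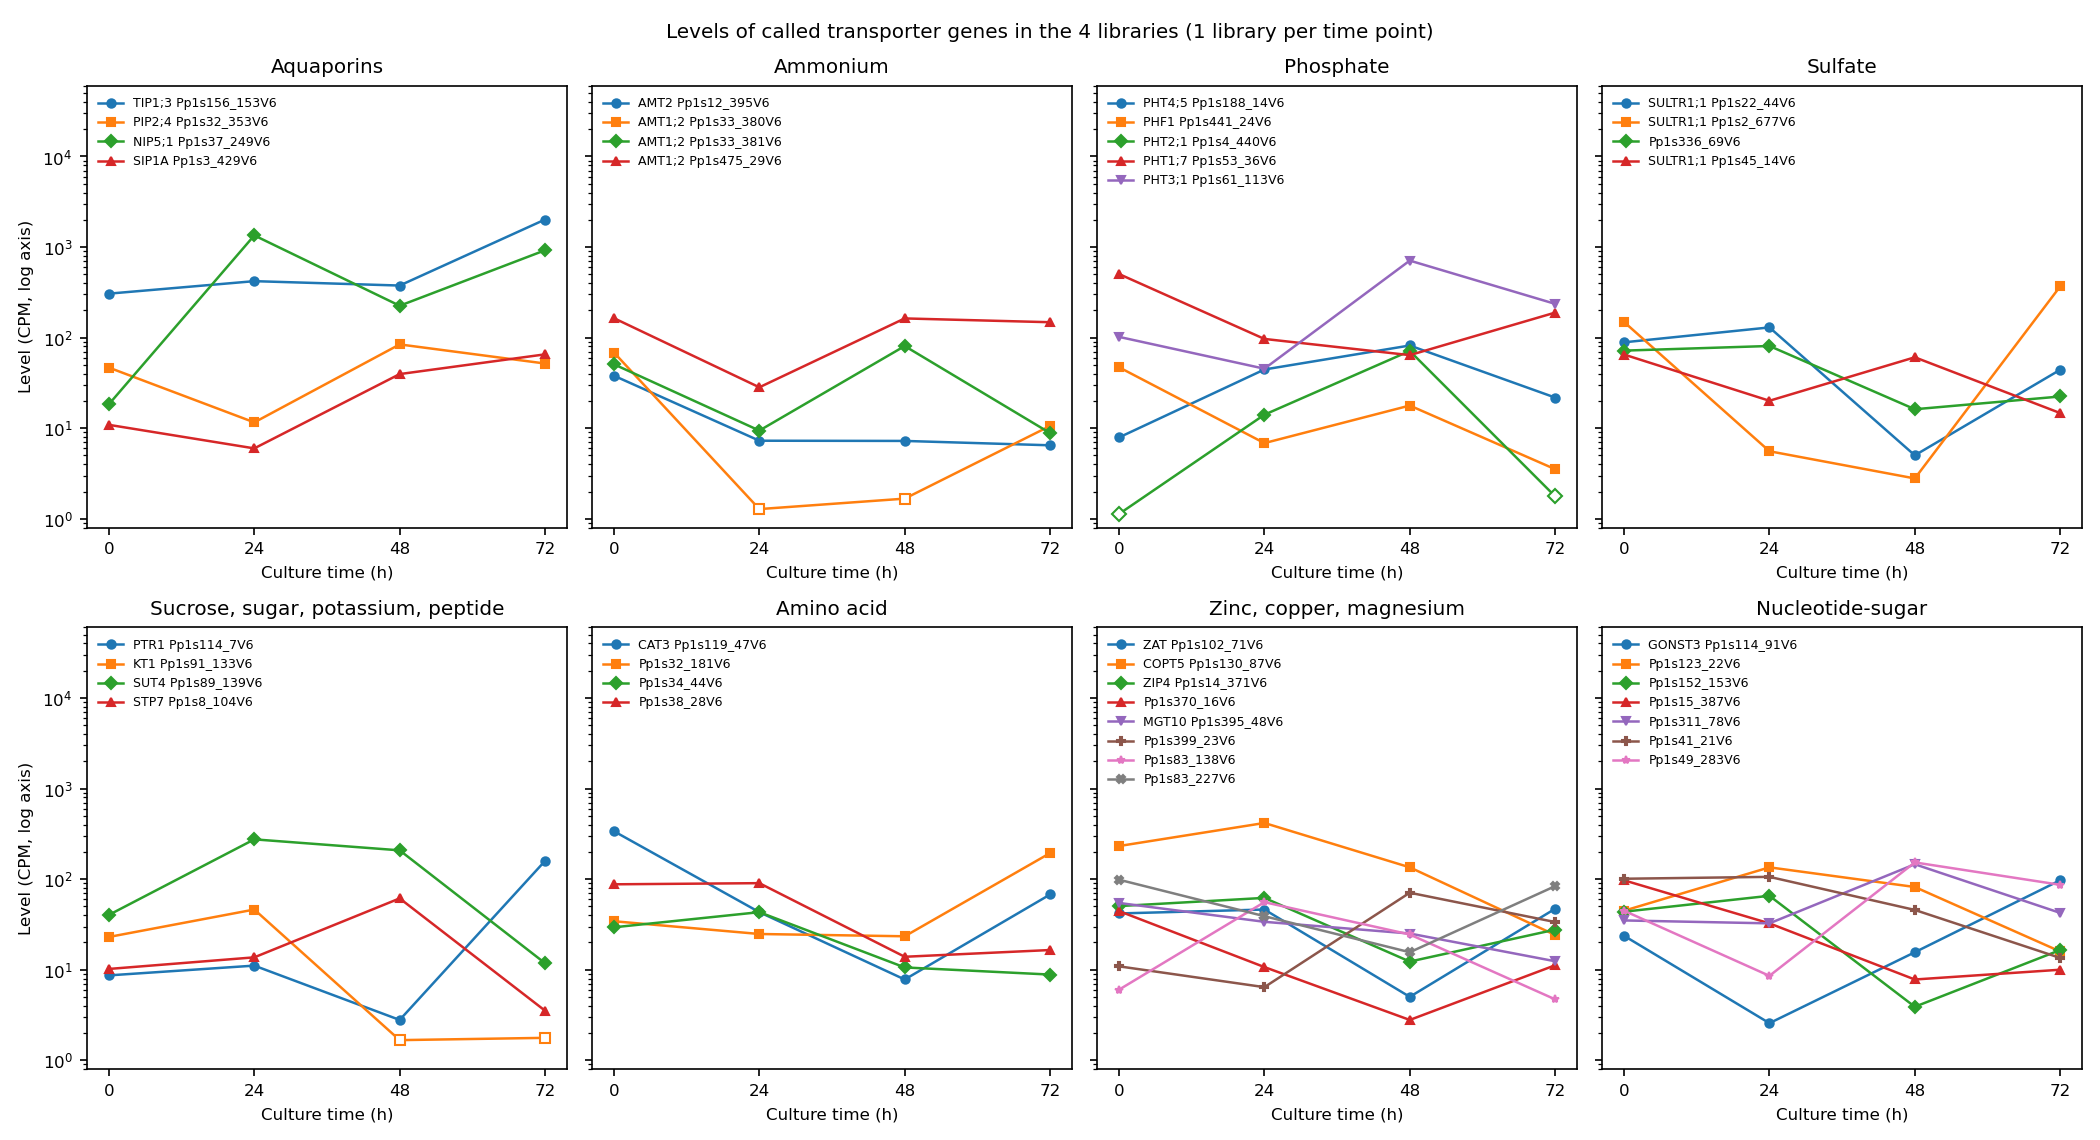
Level of each called transporter (CPM, log axis) against culture time in hours, in 8 panels by family, with 1 library per point. Open symbols stand for 0 tags and are drawn at the level of 3 tags. NIP5;1 goes to 1345 CPM at 24 h, and paralogs with the name SULTR1;1 or AMT1;2 take different courses.

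Among the nitrogen carriers, all 13 genes with the ammonium transporter domain were members, 5 matched to AMT1 genes and 8 to AMT2. Their summed level was 373, 75.8, 325 and 194 CPM at 0, 24, 48 and 72 h, so the low point was in t-24 cells, and each step kept its direction with total tags or DESeq2 size factors. Of 12 tested, 4 were called lower and 0 higher in t-24 cells against t-0 protoplasts, where 4.88% of all genes were lower and 2.43% higher. Their median log2 change was -2.20, beside -0.08 for all genes. Of 7 tested, 2 were called higher and 0 lower in t-48 than in t-24 cells, where 7.48% of all genes were higher and 6.83% lower.

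The most tagged member, AMT1;2 Pp1s475_29V6, had 435, 66, 293 and 252 tags, high at each time but 24 h. It was 5.80-fold lower in t-24 cells than in t-0 protoplasts (4.46 to 7.63) and 5.78-fold higher in t-48 than in t-24 cells (4.41 to 7.67), a ratio that with total tags was 3.93 and not called. In t-72 cells it was 1.10-fold lower than in t-48 cells (0.926 to 1.31) and 1.10-fold lower than in t-0 protoplasts (0.942 to 1.29). These values depend on the scaling, and with total tags the log2 changes were -0.53 and -0.91 in place of -0.14 and -0.14.

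A further pair of genes named AMT1;2 carry consecutive identifiers but took separate courses. Pp1s33_381V6 had 135, 22, 145 and 15 tags, alternating between high and low, and was the only transporter called lower, higher and lower again: 5.40-fold lower in t-24 cells than in t-0 protoplasts (3.42 to 8.90), 8.58-fold higher in t-48 than in t-24 cells (5.46 to 14.1) and 9.14-fold lower in t-72 than in t-48 cells (5.36 to 16.8). At a dispersion of 0.16 the first of these steps was not called. Pp1s33_380V6 had 182, 0, 0 and 18 tags, and was at least 53.3-fold lower in t-24 cells than in t-0 protoplasts. This gene stayed without tags in t-48 cells, where its neighbour was highest. AMT1;1 (Pp1s33_385V6) had 47, 7, 0 and 2 tags and was not called.

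AMT2 in Arabidopsis belongs to a separate branch of ammonium transporters. Pp1s12_395V6 had 101, 17, 13 and 11 tags, and so was high in fresh protoplasts only. It was 5.22-fold lower in t-24 cells (3.11 to 9.32) and 5.87-fold lower in t-72 cells (3.14 to 12.1) than in t-0 protoplasts. The 5 AMT1 genes summed to 303, 45.8, 265 and 177 CPM and the 8 AMT2 genes to 70.4, 30, 60.7 and 17.7.

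No nitrate transporter was called, since none of the 7 reached 100 tags in a library. The one with the most tags, the high-affinity carrier NRT2.4 (Pp1s75_75V6), had 35, 0, 2 and 19 tags, the most in fresh protoplasts. It was at least 10.3-fold lower in t-24 cells than in t-0 protoplasts, and the ratio of t-72 to t-48 cells, 10, rested on 2 tags (2.42 to 88.9). The summed level of the family was 32.4, 7.28, 12.8 and 42.4 CPM, and t-72 cells were above t-0 protoplasts with TMM but below them with total tags.

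Among 10 peptide transporters, 1 was called. It was higher at 72 h against 48 h (1 of 9 tested, all genes 7.65%) and against 0 h (1 of 7 tested, all genes 6.08%). PTR1 (Pp1s114_7V6), which takes up di- and tripeptides in Arabidopsis, had 23, 26, 5 and 270 tags, and was high in t-72 cells only. It was 57.1-fold higher in t-72 than in t-48 cells (24.2 to 177) and 18.4-fold higher than in t-0 protoplasts (12 to 29.5). Its 5 paralogs of the same name had at most 64 tags in a library. PTR5 (Pp1s133_58V6), which had 59, 114, 42 and 25 tags, reached 100 tags and was not called.

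Amino acid transporters were the largest family, and their summed level was 831, 456, 204 and 472 CPM, lowest in t-48 cells. Of 20 tested, 3 were called lower and 0 higher in t-48 than in t-24 cells, where 6.83% of all genes were lower and 7.48% higher. Their median log2 change was -1.36, beside -0.30 for all genes. CAT3 (Pp1s119_47V6), a carrier of cationic amino acids, had 898, 101, 14 and 115 tags. It fell at both early steps and was higher again at the last. It was 7.82-fold lower in t-24 cells than in t-0 protoplasts (6.36 to 9.70), 5.54-fold lower in t-48 than in t-24 cells (3.15 to 10.5) and 8.68-fold higher in t-72 than in t-48 cells (4.97 to 16.4). At a dispersion of 0.16 none of these changes was called.

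The remaining called members of the family carry only the general description of a transmembrane amino acid transporter. Pp1s38_28V6 had 233, 211, 25 and 28 tags, high until 24 h and low after it, and was 6.48-fold lower in t-48 than in t-24 cells (4.27 to 10.2). Pp1s34_44V6, with 78, 101, 19 and 15 tags, took the same shape and was 4.08-fold lower at that step (2.48 to 7.06), just under the limit with DESeq2 size factors (3.99-fold). In contrast, Pp1s32_181V6 had 91, 58, 42 and 329 tags and was 8.28-fold higher in t-72 than in t-48 cells (5.99 to 11.7). The 2 members named AUX1, a name that in Arabidopsis stands for an auxin carrier, had at most 21 tags in a library.

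Phosphate carriers sit in the plasma membrane, in mitochondria and in plastids. The summed level of the 20 genes was 839, 340.4, 1179 and 642 CPM, with low points at 24 and 72 h. The high value at 48 h rested largely on 1 gene, PHT3;1 Pp1s61_113V6, with 102, 45.4, 709 and 236 CPM. PHT1;7 (Pp1s53_36V6), of the proton-coupled uptake carriers of the plasma membrane, had 1338, 226, 115 and 320 tags, by far the most in fresh protoplasts. It was 5.21-fold lower in t-24 cells than in t-0 protoplasts (4.52 to 6.02). PHF1 (Pp1s441_24V6), which is not a carrier but in Arabidopsis helps PHT1 proteins leave the endoplasmic reticulum, had 125, 16, 32 and 6 tags, also highest in fresh protoplasts. It was 6.87-fold lower in t-24 cells (4.07 to 12.4) and 13.3-fold lower in t-72 cells (5.95 to 37.0) than in t-0 protoplasts.

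The 3 called carriers of organelles were each highest in t-48 cells. PHT3;1 (Pp1s61_113V6), the phosphate carrier of mitochondria in Arabidopsis, had 271, 106, 1273 and 400 tags, and was 15.6-fold higher in t-48 than in t-24 cells (12.8 to 19.2). PHT2;1 (Pp1s4_440V6), a phosphate carrier of the chloroplast envelope in Arabidopsis, had 0, 33, 128 and 0 tags, and was found only at 24 and 48 h. It was 5.05-fold higher in t-48 than in t-24 cells (3.42 to 7.65), which with total tags was 3.42-fold and not called, and at least 40.4-fold lower in t-72 than in t-48 cells. PHT4;5 (Pp1s188_14V6), of a group of mostly plastid carriers, had 21, 104, 147 and 37 tags, and was 5.63-fold higher in t-24 cells than in t-0 protoplasts (3.50 to 9.48). Another gene named PHT2;1, Pp1s220_23V6, had 71, 26, 66 and 64 tags and reached 100 tags in no library.

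Sulfate transporters are proton-coupled carriers. Calls in at least 1 of the 4 comparisons were made for 4 of the 6 members, a share that was not counted over all genes. In t-24 cells against t-0 protoplasts 1 was lower and 0 higher of 5 tested (all genes 4.88 and 2.43%). In t-48 against t-24 cells 2 were lower and 0 higher of 6 tested (all genes 6.83 and 7.48%). In t-72 against t-48 cells 1 was lower and 1 higher of 6 tested (all genes 7.06 and 7.65%). In t-72 cells against t-0 protoplasts 1 was lower and 0 higher of 5 tested (all genes 7.93 and 6.08%). Of the genes matched to SULTR1;1, the high-affinity uptake carrier of Arabidopsis roots, 3 were called, and their courses differed. Pp1s2_677V6 had 396, 13, 5 and 625 tags, high at both ends of the series and nearly absent between. It was 26.8-fold lower in t-24 cells than in t-0 protoplasts (15.5 to 50.8) and 132-fold higher in t-72 than in t-48 cells (56.3 to 408), a ratio that rests on 5 tags at 48 h.

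Pp1s22_44V6 had 236, 303, 9 and 75 tags, and so was still high at 24 h, where Pp1s2_677V6 was low. It was 25.9-fold lower in t-48 than in t-24 cells (13.4 to 57.1). Pp1s45_14V6 had 173, 47, 109 and 25 tags, high at 0 and 48 h, and was 4.12-fold lower in t-72 than in t-48 cells (2.65 to 6.65). Another gene of the name, Pp1s12_79V6, had at most 11 tags. Pp1s336_69V6 has no Arabidopsis symbol and was placed here by its description, sulfate transmembrane transporters, so what it carries is not established. It had 191, 189, 29 and 38 tags and was 5.01-fold lower in t-48 than in t-24 cells (3.37 to 7.68). The protein domain most common in the family was assigned to 5 of the 6 members. SULTR4;1 (Pp1s53_215V6), which exports sulfate from the vacuole in Arabidopsis, had 28, 35, 38 and 47 tags. The summed level of the 6 genes was 387, 251, 112 and 478 CPM, and t-72 cells were above t-0 protoplasts with TMM but below them with total tags.

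**Figure D3:**
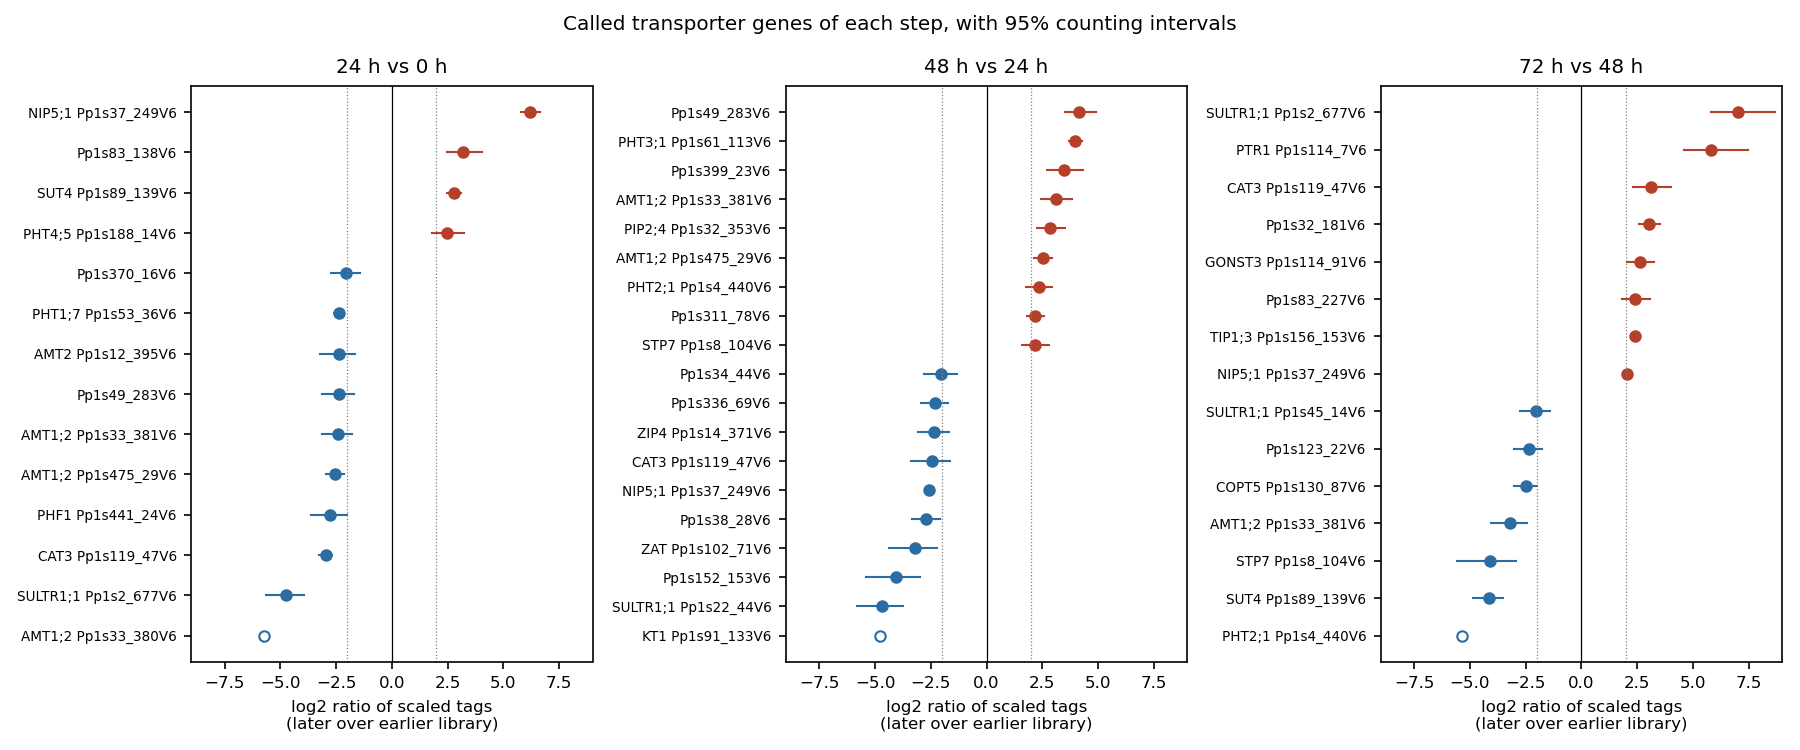
Ratio of scaled tags of the later library over the earlier (log2) for each transporter called in the 3 steps, with 14, 19 and 15 genes, with exact 95% counting intervals as lines and the 4-fold limits dotted. Red marks higher and blue lower in the later library, and open circles are bounds against 0 tags. NIP5;1 stands at the top of the first step and SULTR1;1 Pp1s2_677V6 at the top of the last.

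Potassium carriers gave 1 call, lower at 48 h against 24 h (1 of 3 tested, all genes 6.83%). KT1 (Pp1s91_133V6), of the KUP family of potassium uptake carriers, had 61, 108, 0 and 0 tags, found at 0 and 24 h and without tags after. It was at least 27.7-fold lower in t-48 than in t-24 cells. The same gene was chosen by the study for quantitative PCR on biological replicates. The paper reports that PCR and tags followed the same trend for every gene it chose. The KT1 primers are shown because they are the only sequences that identify a transporter's transcript in the sources used here.
KT1 sense primer: ttcttgttcgcacccat
KT1 reverse primer: agttcgttgaagtgaccc
The member of the family with the most tags, Pp1s6_102V6, had 365, 140, 110 and 171 tags and was not called. Another KT1 gene, Pp1s25_346V6, had 33 tags in t-0 protoplasts and 0 in the other libraries. All 5 members carry the KUP protein domain, and 8 further genes with that domain lie outside the rule.

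Metal carriers held the steadiest of the abundant genes. ZIP11 (Pp1s144_110V6), of a family that brings zinc into the cytosol, had 590, 509, 474 and 585 tags, and its level varied 1.58-fold over the 4 libraries, the least of the 16 uncalled transporters with 100 or more tags (median 3.23-fold). COPT5 (Pp1s130_87V6), which in Arabidopsis exports copper from the vacuole, had 617, 974, 243 and 41 tags, with a peak at 24 h and the low point at 72 h. It was 5.61-fold lower in t-72 than in t-48 cells (4.01 to 8.01) and 9.62-fold lower than in t-0 protoplasts (7.01 to 13.5).

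The zinc carriers ZAT and ZIP4 were low in t-48 cells. ZAT (Pp1s102_71V6), which loads zinc into the vacuole in Arabidopsis, had 111, 108, 9 and 80 tags, and was 9.22-fold lower in t-48 than in t-24 cells (4.68 to 20.7). ZIP4 (Pp1s14_371V6) had 134, 145, 22 and 47 tags, and was 5.06-fold lower at the same step (3.22 to 8.33).

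Magnesium carriers of the CorA type moved both ways. Pp1s83_138V6 had 16, 130, 44 and 8 tags, highest in t-24 cells, and was 9.24-fold higher there than in t-0 protoplasts (5.48 to 16.6). Pp1s370_16V6 had 118, 25, 5 and 19 tags, and was 4.15-fold lower in t-24 cells than in t-0 protoplasts (2.68 to 6.67), which was not called with total tags (3.63-fold) or DESeq2 size factors (3.86-fold). Pp1s83_227V6, matched to the same Arabidopsis gene as Pp1s370_16V6, had 262, 91, 28 and 142 tags, and was 5.36-fold higher in t-72 than in t-48 cells (3.56 to 8.35). MGT10 (Pp1s395_48V6) had 145, 79, 45 and 21 tags, lower at each time, and was 4.41-fold lower in t-72 cells than in t-0 protoplasts (2.78 to 7.34). Pp1s399_23V6, with 29, 15, 127 and 57 tags, was 11.0-fold higher in t-48 than in t-24 cells (6.44 to 20.3), but its description also names the oligosaccharyltransferase complex, which adds sugar chains to proteins. The 7 genes of the other cation family, 6 of them cation-chloride co-transporters, had at most 97 tags in a library and were not called.

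Among the sucrose carriers 1 gene was abundant in the middle of the series. SUT4 (Pp1s89_139V6), a proton-coupled sucrose carrier, had 107, 643, 373 and 20 tags, high at 24 and 48 h. It was 6.83-fold higher in t-24 cells than in t-0 protoplasts (5.56 to 8.47) and 17.6-fold lower in t-72 than in t-48 cells (11.3 to 29.2). Its paralog Pp1s224_41V6 had 141, 98, 59 and 25 tags, the most in fresh protoplasts, and was not called. STP7 (Pp1s8_104V6), of the family of monosaccharide carriers, had 27, 32, 110 and 6 tags, with a peak in t-48 cells. It was 4.47-fold higher in t-48 than in t-24 cells (2.99 to 6.86), which with total tags was 3.03-fold and not called, and 17.3-fold lower in t-72 than in t-48 cells (7.72 to 48.3). The family's summed level was 121, 366, 365 and 58.3 CPM, of which SUT4 Pp1s89_139V6 made up 40.3, 275, 208 and 11.8.

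Nucleotide-sugar transporters bring activated sugars into the Golgi, where polysaccharides and glycoproteins of the new wall are made. As a family they changed little until 48 h, with a summed level of 896, 842, 799 and 531 CPM, but single members moved apart. Pp1s49_283V6 had 119, 20, 275 and 147 tags, low in t-24 cells only, and was 17.9-fold higher in t-48 than in t-24 cells (11.4 to 29.8). Pp1s152_153V6 had 116, 153, 7 and 28 tags, the opposite course, and was 16.8-fold lower at that step (7.96 to 42.5). GONST3 (Pp1s114_91V6) had 63, 6, 28 and 165 tags, highest in t-72 cells, and was 6.23-fold higher there than in t-48 cells (4.16 to 9.66).

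A pair of genes matched to the same Arabidopsis locus by different transcripts were also apart. Pp1s311_78V6 had 93, 76, 262 and 72 tags, and was 4.49-fold higher in t-48 than in t-24 cells (3.46 to 5.87), which with total tags was 3.06-fold and not called. Pp1s123_22V6 had 119, 315, 147 and 27 tags, with its peak at 24 h, and was 5.15-fold lower in t-72 than in t-48 cells (3.40 to 8.08). Among 3 genes matched to a further locus, all were lowest at the late times. Pp1s15_388V6 had 765, 537, 222 and 177 tags and was not called. Pp1s15_387V6, with 258, 76, 14 and 17 tags, was 9.70-fold lower in t-72 cells than in t-0 protoplasts (5.94 to 16.9). Pp1s41_21V6, with 267, 247, 82 and 23 tags, was 7.42-fold lower in that comparison (4.84 to 11.9).

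**Figure D4:**
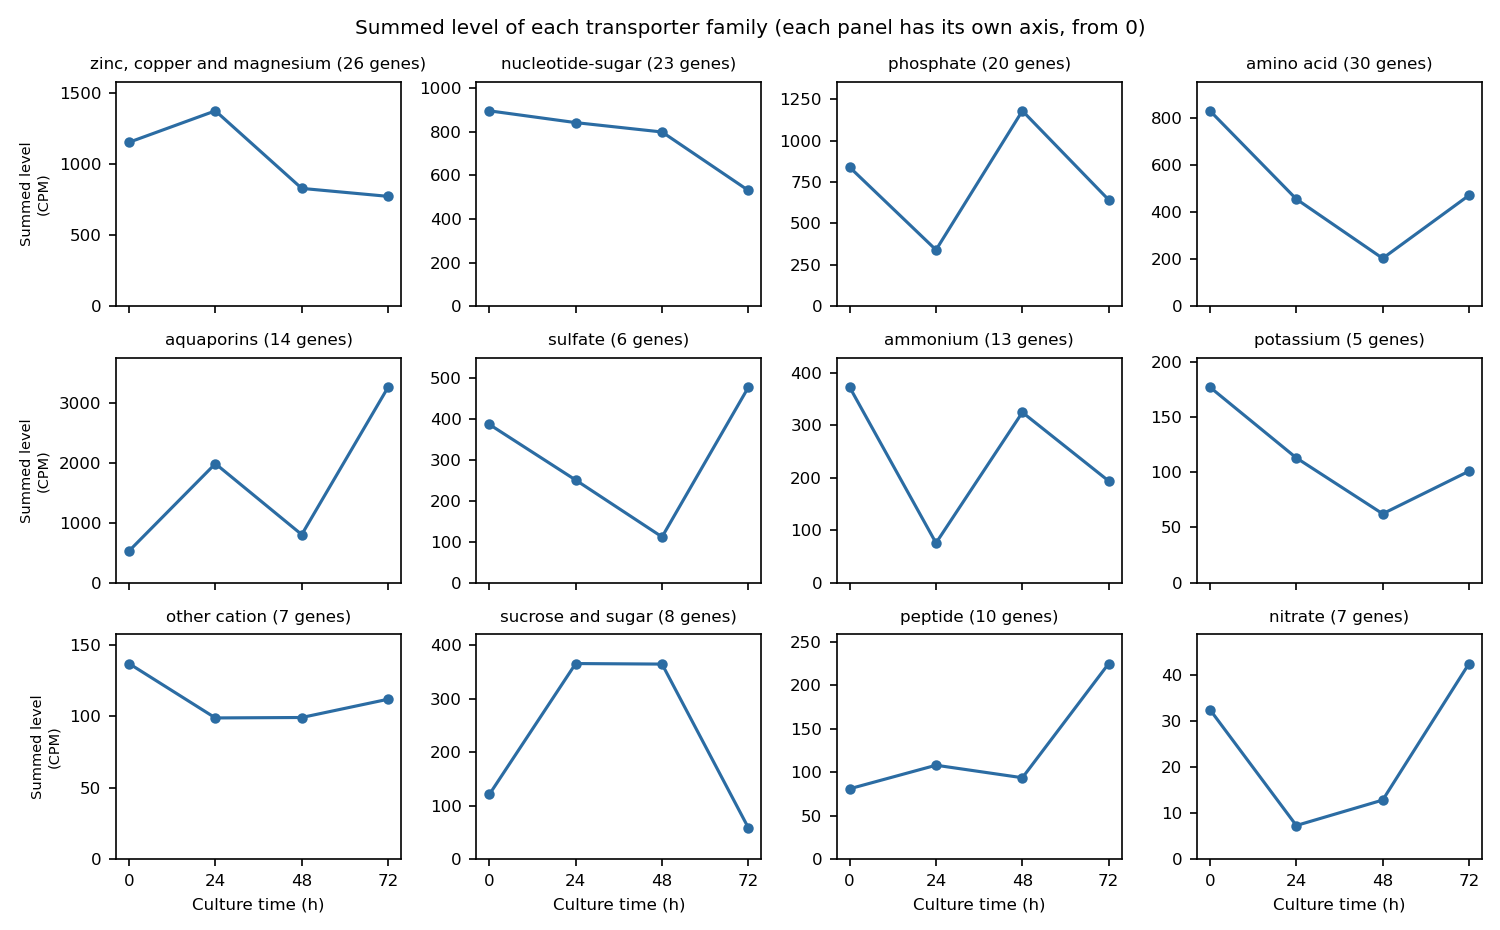
Summed level of each of the 12 transporter families (CPM) against culture time in hours, with 1 library per point and an axis from 0 in each panel. Aquaporins reach 3270 at 72 h, ammonium transporters are lowest at 24 h with 75.8, and sucrose and sugar carriers are highest at 24 and 48 h with 366 and 365.

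The genes that feed or follow these carriers were counted from lists chosen by description. Of 22 tested genes of nitrogen and sulfur assimilation, 7 were called lower and 0 higher in t-24 cells against t-0 protoplasts (all genes 4.88 and 2.43%), and 5 higher and 1 lower in t-48 against t-24 cells (all genes 7.48 and 6.83%). The medians of the list, 0.11 and -0.13 on the log2 scale, were of the opposite sign to the balance of these calls. In t-72 against t-48 cells 3 were higher and 4 lower of 18 tested, with a median of -0.73 (all genes 7.65 and 7.06%). Glutamine synthetase GS2 (Pp1s40_17V6), which fixes ammonium in the chloroplast, had 1033, 79, 1198 and 112 tags, low in t-24 and t-72 cells. It was 19.7-fold higher in t-48 than in t-24 cells (15.7 to 25.1). GLN1;4 (Pp1s345_10V6), a cytosolic glutamine synthetase, had 149, 3, 27 and 13 tags, the most in fresh protoplasts, and the ratio of t-24 cells to t-0 protoplasts, 43.7-fold lower, rested on 3 tags (14.7 to 214).

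Of the plasma membrane proton pumps, 6 were tested in the first step, where 1 was called lower and 0 higher (all genes 4.88 and 2.43%). HA6 (Pp1s321_30V6) had 448, 78, 15 and 511 tags, high at both ends of the series, and was 36.0-fold higher in t-72 than in t-48 cells (21.6 to 64.8). Of 21 vacuolar proton pump genes tested between 24 and 48 h, 4 were called higher and 0 lower in t-48 cells (all genes 7.48 and 6.83%). TUF (Pp1s269_14V6), a subunit of the vacuolar pump, had 15, 16, 32 and 247 tags, and was 25.8-fold higher in t-72 cells than in t-0 protoplasts (15.3 to 46.7). Another subunit gene, Pp1s14_11V6, with 105, 31, 215 and 6 tags, was 33.9-fold lower in t-72 than in t-48 cells (15.3 to 93.4).

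Potassium channels and carriers that are written K+ lie outside the rule. Of 23 tested in t-24 cells against t-0 protoplasts, 2 were called higher and 1 lower (all genes 2.43 and 4.88%), with a median log2 change of -0.0. The summed level was 751, 1510, 760.1 and 1225 CPM at 0, 24, 48 and 72 h. A single gene, Pp1s24_247V6, held 41.2% of the list's tags over the libraries. Of 20 tested between 24 and 48 h, 3 were called lower and 0 higher in t-48 cells (all genes 6.83 and 7.48%). KEA1 (Pp1s31_202V6), a potassium efflux antiporter, had 154, 135, 6 and 61 tags, and was 17.3-fold lower at that step (7.74 to 47.9). KEA2 (Pp1s262_91V6), with 97, 107, 135 and 7 tags, was 18.2-fold lower in t-72 than in t-48 cells (8.62 to 46.2).

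ABC transporters, which run on ATP and not on the proton gradient, were called lower for 10 and higher for 1 of 51 tested genes in t-24 cells against t-0 protoplasts (all genes 4.88 and 2.43%). In t-72 against t-48 cells 10 were higher and 0 lower of 42 tested (all genes 7.65 and 7.06%). PEN3 (Pp1s59_42V6) had 1240, 7, 29 and 240 tags, and was 156-fold lower in t-24 cells than in t-0 protoplasts (75.4 to 388). PDR1 (Pp1s280_39V6), with 198, 52, 3 and 0 tags, was at least 42.2-fold lower in t-72 cells than in t-0 protoplasts.

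Photosystem and antenna genes were counted because of the change from dark to light after 24 h. Of 99 tested, 40 were called lower and 0 higher in t-24 cells against t-0 protoplasts (all genes 4.88 and 2.43%). Of 101 tested, 70 were higher and 0 lower in t-48 against t-24 cells (all genes 7.48 and 6.83%). Of 100 tested, 1 was higher and 39 lower in t-72 against t-48 cells (all genes 7.65 and 7.06%). LHCB4.2 (Pp1s472_14V6) had 2, 0, 196 and 13 tags and was at least 85.0-fold higher in t-48 than in t-24 cells. PSAO (Pp1s248_61V6), with 68, 11, 263 and 0 tags, was at least 82.9-fold lower in t-72 than in t-48 cells. The summed levels of the ammonium, phosphate and nitrate families were lower in t-24 cells than in t-0 protoplasts. They were higher in t-48 than in t-24 cells, for nitrate on 23 and 17 tags. For phosphate, PHT3;1 Pp1s61_113V6 made up 709 of the 1179 CPM at 48 h. In t-72 cells the ammonium and phosphate sums were below those of t-48 cells. The nitrate sum was above it, at 42.4 beside 12.8 CPM. At 24 and 48 h the aquaporin, the peptide and the zinc, copper and magnesium families were instead higher and then lower. Amino acid, sulfate and potassium carriers were lower at both steps. The remaining families were nearly level between 24 and 48 h with TMM. The part of light in these courses was not tested.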

How the data were processed

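Digital gene expression tags were counted in 4 libraries, 1 per time point. The authors deposited whole-number counts of tags per gene: reads were cut to the CATG-anchored tag, tags seen once and tags that matched several genes were removed, and the rest were aligned with Bowtie (named in the submitters' processing notes) to the Phytozome moss annotation with at most 1 mismatch. Removing shared tags leaves counts of near-identical paralogs uncertain. Descriptions are the Arabidopsis matches in the deposited files. Libraries were scaled by TMM, and each pair of libraries was tested over the genes whose tags summed to 10 or more with edgeR 4.0.16 in R 4.3.3 (exact test, dispersion 1e-09), since 1 library per group leaves no degrees of freedom for the quasi-likelihood test. p-values were adjusted over all genes tested and are not printed. The log2 limit used a prior count of 0.5, and bounds used 3 tags for a library at 0. The procedure was tested on simulated data with known changes. Those data held counting error only, with no spread between cultures, so they cannot show how calls would fare with that spread. Intervals were computed with scipy 1.17.1.

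Genes named are all transporters called in a comparison, the most tagged gene of each family and up to 2 called genes per other list by size of change. Paralogs and uncalled genes beside them were chosen after their values were seen. Members, families and lists were chosen with earlier results of these data known, and the spelling nucleotide/sugar was added to the nucleotide-sugar family after the descriptions were read. Alternatives were total tags, DESeq2 1.42.0 size factors, no filter on low counts, 30 tags, 2-fold, a dispersion of 0.16 and, after seeing the data, TMM without the 72 h library. No RefSeq entry could be matched to the moss identifiers, so no gene or protein sequence is shown, and the primers come from the study's supplement.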

Additional observations from a re-analysis of the deposited data

How the results depend on the processing

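Leaving out a replicate was not possible with 1 library per time point. No paired analysis was possible because each time point has 1 library. In the order 24 h against 0 h, 48 h against 24 h, 72 h against 48 h and 72 h against 0 h, a minimum of 30 tags gave 7, 18, 15 and 8 transporters called higher and 17, 22, 18 and 23 lower. A 2-fold limit gave 8, 10, 10 and 9 higher and 19, 19, 12 and 24 lower. A dispersion of 0.16, a stand-in for spread between cultures, left 1, 4, 3 and 2 higher and 2, 3, 4 and 3 lower. In the first step these were NIP5;1 higher, and AMT1;2 Pp1s33_380V6 and SULTR1;1 Pp1s2_677V6 lower. In the last step PTR1, SULTR1;1 Pp1s2_677V6 and Pp1s32_181V6 were higher, and SUT4, STP7, PHT2;1 and AMT1;2 Pp1s33_381V6 lower. With total tags the calls were 4, 5, 7 and 2 higher and 9, 12, 9 and 23 lower, and the transporters' median log2 changes were 0.10, -1.04, -0.64 and -1.70, so the first changed sign. DESeq2 size factors, no filter and TMM without the 72 h library kept each count within 1.5 times. Of 176 log2 changes of named transporters, 12 changed sign with total tags, none over 0.66 in size, and 2 with DESeq2 size factors. None of the 65 called changes did, but total tags ended 10 of these calls and DESeq2 size factors 2. Of 48 changes in a family's summed level, 5 changed sign with total tags and 1 with DESeq2 size factors. Below a level of 1.77 CPM, the worth of 3 tags in the 72 h library, a gene cannot be told from absent.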
